A study of Oryza sativa with 6 samples.

Results

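Short lateral roots of 2 rice (Oryza sativa) cultivars were compared, locus by locus. S-type laterals are the short, thin and unbranched laterals of rice; L-type laterals are longer and branch again, and nodal roots emerge from the stem. The S-type library of IR29, labelled salinity sensitive, was set against that of Mulai, labelled salinity tolerant. Both belong to a set of 6 messenger RNA libraries, 1 for each cultivar and root type (S-type, nodal and L-type). The labels name no salt treatment, no plant age and no pooling of plants. A locus entered the comparison when its value reached 10 in 1 or both of the S-type libraries, which left 19492 of the 38042 loci (51.2%). The value is a fragment count scaled per library, called a scaled count here. The larger of the 2 scaled counts was 10.5 for the lowest locus taken in and 9.79 for the highest one left out. Of the 18550 loci left out, 12201 were unread in both S-type libraries.

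Lateral roots make up most of the length of a rice root system and take up much of its water and mineral ions. In saline soil they are exposed to sodium over a large surface, and cultivars differ in how roots and shoots limit its entry and transport. IR29 is widely used as a sensitive standard in salinity work. None of this was measured here: the comparison is one of transcript levels with no salt treatment named.

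Each side of the comparison held 1 library, so that no replicate error exists and no difference between the S-type libraries was tested. The counting intervals below cover the sampling of reads only. Summed over the 38042 loci, the IR29 S-type library held 4083173 reads and the Mulai S-type library 6246649. A read here is 1 fragment counted at a locus, and all totals of reads below are such sums. How many fragments fell outside the loci is not known. One read was worth 1.504 units in IR29 and 0.890 units in Mulai, and the minimum of 10 therefore stood for 6.65 reads in IR29 and 11.2 reads in Mulai. The labels refer the libraries of each cultivar to a separate earlier set of records, so that cultivar and any batch of growth or sequencing cannot be told apart. The table gives locus identifiers without gene names, and 0 of them matched the gene table at hand, so that no marker gene could be used to check the S-type label. Across the 20316 loci whose value reached 10 in 2 or more libraries, the IR29 S-type library correlated with the Mulai S-type library at r = 0.79, above its r = 0.74 with the Mulai L-type and its r = 0.60 with the Mulai nodal library. The S-type and L-type libraries of 1 cultivar were closer, at r = 0.84 in IR29 and r = 0.91 in Mulai. The S-type and nodal libraries of 1 cultivar were not, at r = 0.74 in IR29 and r = 0.78 in Mulai. The L-type libraries did not match best across cultivars, since Mulai L-type correlated with IR29 L-type at r = 0.71, with IR29 S-type at r = 0.74 and with IR29 nodal at r = 0.72. These correlations therefore do not settle the root type labels. The points of such a correlation share their libraries.

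Most loci had similar levels in the S-type laterals of both cultivars. In whole roots, a lower level per cell and fewer cells with the transcript cannot be told apart. Reads were found in both libraries for 18358 loci (94.2%). Their median log2 fold of IR29 over Mulai, computed on log2(scaled count + 1), was 0.02, with quartiles at -0.46 and 0.54, and the median size of the fold in either direction was 0.50. Within 2-fold lay 13701 of these loci (74.6%). At least 2-fold higher in IR29 were 2676 loci (14.6%), and at least 2-fold lower were 1981 (10.8%). These shares are the background against which the smaller groups below are read. Counted with the loci that had no read in one library, 3095 of 19492 loci were at least 2-fold higher in IR29 (15.9%) and 2696 at least 2-fold lower (13.8%).

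**Figure D1:**
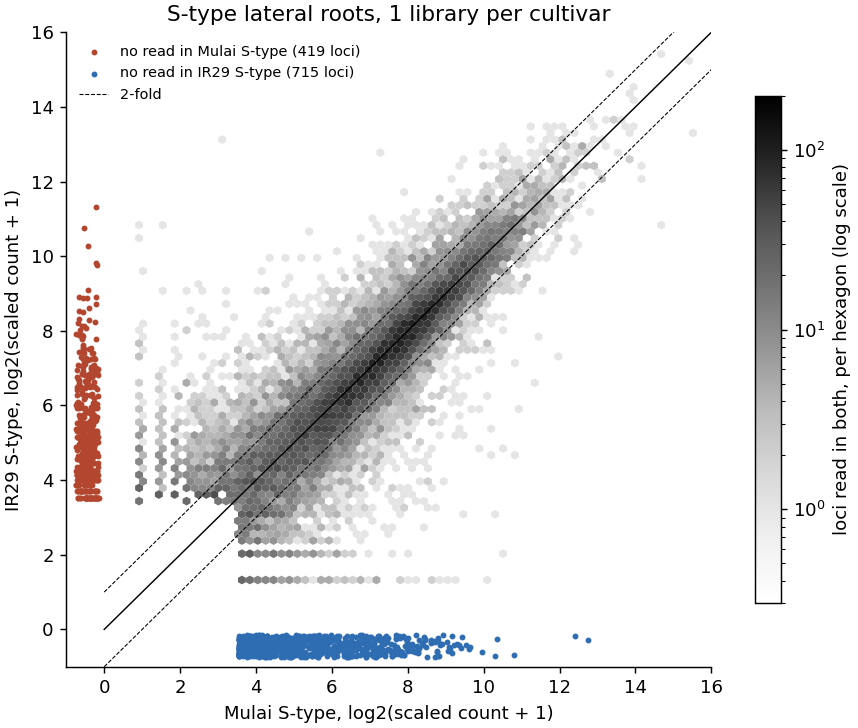
Scaled counts in the IR29 S-type library (vertical axis) and the Mulai S-type library (horizontal axis), both as log2(scaled count + 1), for 19492 loci. Grey hexagons count the loci read in both libraries, the lines mark equality and 2-fold, and coloured points, spread at random beside an axis at 0, are the 419 loci without a read in Mulai and the 715 without a read in IR29; most loci lie between the 2-fold lines.

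The excess of higher over lower loci depended on the scaling. Of the loci read in both libraries and past 2-fold, 57.5% were higher in IR29 under the authors' scaling. Scaled to each library's total reads, the median fold was -0.13, and 2274 loci were at least 2-fold higher against 2434 lower, so that 48.3% were higher. With TMM factors, which trim the extreme loci before the libraries are aligned, 52.3% were higher. With folds centred on their median, 56.4% were higher. The balance of the directions is therefore not a stable feature of these libraries, and the group results below are given relative to other loci.

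Large differences were fewer and more often rested on few reads. At least 4-fold higher in IR29 were 950 of the loci read in both (5.17%), and at least 4-fold lower were 615 (3.35%). At least 16-fold higher were 124 loci and at least 16-fold lower 94. Among the 15838 loci with at least 10 reads in both libraries, 1838 were at least 2-fold higher in IR29 and 1080 at least 2-fold lower, and the counts past 16-fold were 26 and 16. In the remaining 2520 loci, which had fewer than 10 reads in one of the libraries, the median size of the fold was 1.54 on the log2 scale. Many of these loci entered through the library in which they were high, and had to differ. The 95% counting interval of the ratio lay wholly past 2-fold for 1401 of the 2676 higher loci (52.4%) and for 713 of the 1981 lower loci (36.0%). It still held a ratio of 1 for 187 of the higher and 211 of the lower loci.

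**Figure D2:**
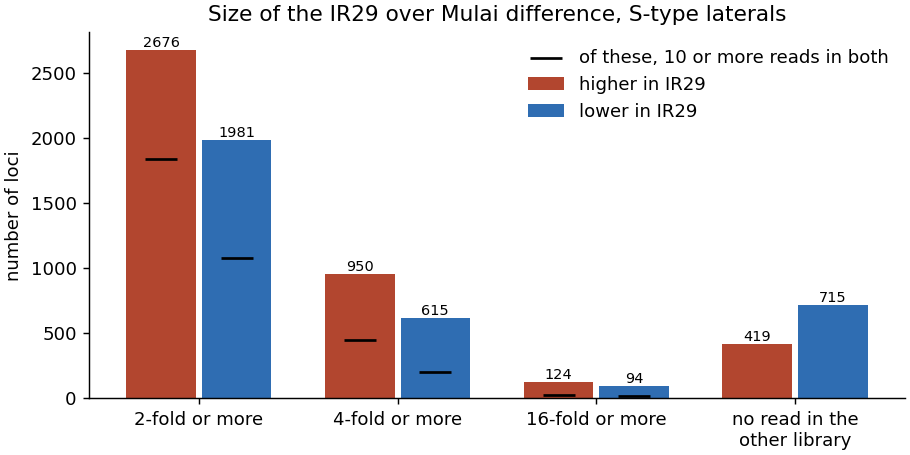
Number of loci by size of the difference between the S-type libraries, higher in IR29 (red) or lower in IR29 (blue). The first 3 pairs of bars are cumulative counts of loci read in both libraries, with a black dash at the number that had at least 10 reads in both, and the last pair counts loci with no read in the other library (419 without a read in Mulai, 715 without a read in IR29).

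The 2-fold loci carried a sizeable part of each library. The 2676 higher loci held 20.8% of the IR29 reads (exact 95% binomial interval 20.78 to 20.86) and 7.34% of the Mulai reads (7.32 to 7.36). The 1981 lower loci held 3.01% of the IR29 reads (2.998 to 3.031) and 10.8% of the Mulai reads (10.78 to 10.83). These loci were chosen by the same values, so that the shares describe how large the 2 groups are. Of the 100 loci with the highest scaled counts in each library, 59 were in both lists. In the IR29 list 37 loci were at least 2-fold higher in IR29 and 4 at least 2-fold lower, and in the Mulai list 5 were higher and 22 lower. Over all loci read in both libraries the shares were 14.6% higher and 10.8% lower. Each list was ranked on values that also form the fold, which tilts it towards its own cultivar, so that nothing is read from these leans.

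Loci without a read in one library were kept apart, since their fold has no upper limit. No read was found in Mulai S-type roots for 419 loci (2.15%) that had scaled counts between 10.5 and 2550 in IR29, with a median of 31.6. No read was found in IR29 S-type roots for 715 loci (3.67%) that had scaled counts between 10.7 and 6895 in Mulai, with a median of 34.7. More loci were unread in IR29 in the other root types too. By the same rule 697 were unread in IR29 and 324 in Mulai nodal roots, and 983 and 427 in L-type roots. IR29 had the fewer reads in every root type. With reads thinned to 1 total, 770 loci were unread in IR29 and 476 in Mulai S-type roots. A count of 0 allows up to 3 reads, which is a scaled count of 4.51 in the IR29 and 2.67 in the Mulai library. Against that floor, 157 of the 419 loci (37.5%) were at least 16-fold higher in IR29, and 225 of the 715 (31.5%) at least 16-fold lower. The scaled count reached 100 in 75 of the 419 and in 179 of the 715 loci. The 419 loci took 0.531% of the IR29 reads (exact 95% binomial interval 0.524 to 0.538), and the 715 loci took 1.37% of the Mulai reads (1.36 to 1.38).

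Most of these absences extended to the whole cultivar. Of the 419 loci without a read in Mulai S-type roots, 306 (73.0%) had none in the Mulai nodal and L-type libraries either. Of the 715 loci without a read in IR29 S-type roots, 578 (80.8%) had none in the IR29 nodal and L-type libraries. The other cultivar had reads for most of them in every root type: 348 of the 419 were read in both the IR29 nodal and L-type libraries, and 691 of the 715 in both the Mulai nodal and L-type libraries. The 578 loci had a median scaled count of 38.3 in Mulai S-type, 31.3 in Mulai nodal and 35.1 in Mulai L-type roots. The 306 loci had a median of 36.1 in IR29 S-type, 25.4 in IR29 nodal and 35.1 in IR29 L-type roots.

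An absence that was limited to S-type roots was rare. Among the 419 loci without a read in Mulai S-type roots, 113 were read in another Mulai root type, but with a scaled count of at least 10 in only 17, and in both other root types in 3. Among the 715 loci without a read in IR29 S-type roots, 137 were read in another IR29 root type, at 10 or more in 33, and in both in 7. The highest of the 33 had scaled counts of 0 in IR29 S-type against 20.5 in Mulai S-type roots, 126 against 138 in nodal roots and 5.86 against 12.8 in L-type roots. It was thus a nodal root locus in both cultivars, low in the S-type laterals of both. The highest of the 17 had scaled counts of 12.0 in IR29 S-type against 0 in Mulai S-type roots, 209.8 against 87.8 in nodal roots and 3.51 against 5.13 in L-type roots, and was likewise highest in nodal roots.

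The 4 loci singled out by size show both kinds of difference. XLOC_003950 had the highest IR29 value among loci without a read in Mulai S-type roots, with a scaled count of 2550 in IR29 S-type roots (1696 reads) against 0 in Mulai. It had scaled counts of 2622 in IR29 L-type and 226 in IR29 nodal roots and no read in either corresponding Mulai library. With 3 reads per library as the floor, it was at least 955-fold higher in IR29 in S-type, 1022-fold in L-type and 125-fold in nodal roots. All IR29 libraries lay above all Mulai libraries.

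XLOC_035080 had the highest Mulai value among loci without a read in IR29 S-type roots, with a scaled count of 0 in IR29 against 6895 in Mulai S-type roots (7748 reads), at least 1528-fold lower. In nodal roots it had 3.46 in IR29 (3 reads) against 1332 in Mulai, a Mulai over IR29 ratio of 385 with a 95% counting interval of 132 to 1869. In L-type roots it had 1.17 in IR29 (1 read) against 4606 in Mulai, a ratio of 3933 (706 to 155391). The locus was close to absent from every IR29 library and abundant in every Mulai library.

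XLOC_002792 had the largest fold upward among loci with at least 10 reads in both libraries, with a scaled count of 555 in IR29 (369 reads) against 8.90 in Mulai S-type roots (10 reads). The ratio was 62.4 (95% counting interval 33.5 to 131). It had 62.3 in IR29 against 6.61 in Mulai nodal roots, a ratio of 9.42 (4.87 to 20.0), and 279.9 in IR29 against 44.5 in Mulai L-type roots, a ratio of 6.29 (4.65 to 8.67). The locus was higher in IR29 in every root type; it was chosen for its S-type fold, so that a larger ratio there says nothing about the root types.

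XLOC_001078 had the largest fold downward by the same rule, with a scaled count of 22.6 in IR29 (15 reads) against 1816 in Mulai S-type roots (2040 reads), a Mulai over IR29 ratio of 80.5 (48.7 to 144). It had 89.9 in IR29 against 204 in Mulai nodal roots, a ratio of 2.27 (1.77 to 2.95), and 5.86 in IR29 (5 reads) against 422 in Mulai L-type roots, a ratio of 72.0 (30.6 to 223). In Mulai the locus was highest in S-type laterals, whereas in IR29 it was highest in nodal roots. This locus too was chosen for its S-type fold, so that nothing is read from that order of the root types.

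Larger folds stood among the loci with 1 to 9 reads in one library, looked at after their values were seen and given without identifier. The largest upward had a scaled count of 8975 in IR29 (5968 reads) against 8.01 in Mulai S-type roots (9 reads), a ratio of 1120 (95% counting interval 590 to 2452). It also had 4493 in IR29 against 2.40 in Mulai nodal roots (4 reads) and 9556 in IR29 against 2.57 in Mulai L-type roots (3 reads), and was thus abundant in every IR29 library and close to absent in every Mulai library. The largest downward had 1.504 in IR29 (1 read) against 1107 in Mulai S-type roots (1244 reads), a Mulai over IR29 ratio of 736 (132 to 29102). It had no read in IR29 nodal or L-type roots, against 474 in Mulai nodal and 569 in Mulai L-type roots.

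**Figure D3:**
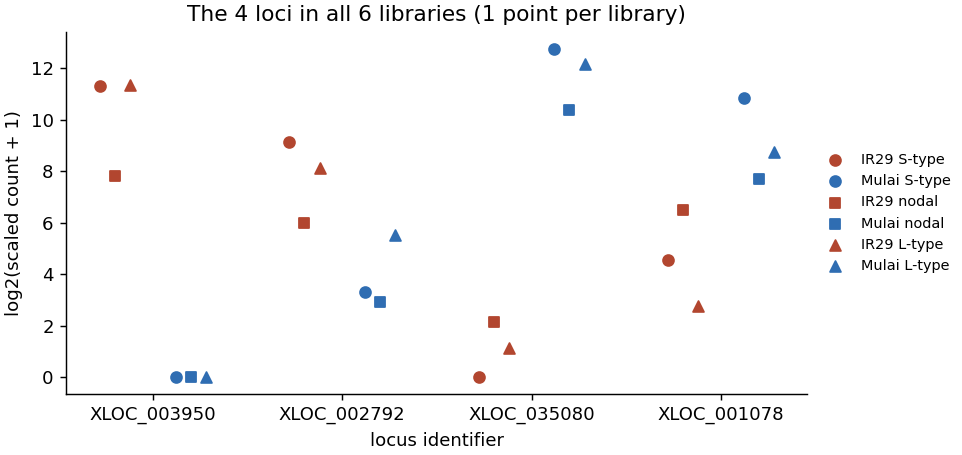
Scaled counts, as log2(scaled count + 1), of the 4 loci in each of the 6 libraries, IR29 in red at the left and Mulai in blue at the right of each locus, with 1 point per library and the root type given by the symbol. XLOC_003950 and XLOC_002792 are higher in IR29 in every root type, XLOC_035080 and XLOC_001078 are lower, and XLOC_001078 differs least in nodal roots.

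The nodal and L-type libraries played no part in choosing loci by their S-type levels, and they show how far the cultivar difference was shared. Of the 2676 loci at least 2-fold higher in IR29 S-type roots and read in both, 439 (16.4%) were also at least 2-fold higher in IR29 in both nodal and L-type roots, 210 in nodal roots alone and 417 in L-type roots alone. In 1610 (60.2%) neither other root type reached 2-fold in that direction. Of the 1981 lower loci, 514 (25.9%) were also lower in both other root types, 167 in nodal roots alone, 510 in L-type roots alone, and 790 (39.9%) in neither. Some loci were low there. A value of 10 in 1 or both cultivars was reached in both other root types by 77.4% of the higher and 86.2% of the lower loci. Of the loci within 2-fold in S-type roots, 96.0% reached it, and 86.7% passed 2-fold upward in neither other root type. Downward, 6.61% of them passed 2-fold in nodal and 18.0% in L-type roots, against 3.07% and 11.5% upward. The shares of 60.2% and 39.9% in neither therefore have unlike backgrounds. Among the 13701 loci within 2-fold in S-type roots, 173 (1.26%) were at least 2-fold higher and 616 (4.50%) at least 2-fold lower in IR29 in both other root types, so that lower loci were the commoner there as well. The median log2 fold of the higher loci was 0.22 in nodal and 0.20 in L-type roots, against 0.01 and 0.05 for the 13701 loci within 2-fold in S-type roots. The median of the lower loci was -0.59 in nodal and -1.07 in L-type roots. The median of the loci lower in IR29 S-type roots was thus clearly below 0 in the other root types too. The median of the higher loci lay close to 0 there, which does not mean that their difference was not shared. Each group passed 2-fold in its own direction in both other root types more often than the loci within 2-fold in S-type roots. The shares were 16.4% against 1.26% for the higher and 25.9% against 4.50% for the lower loci.

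**Figure D4:**
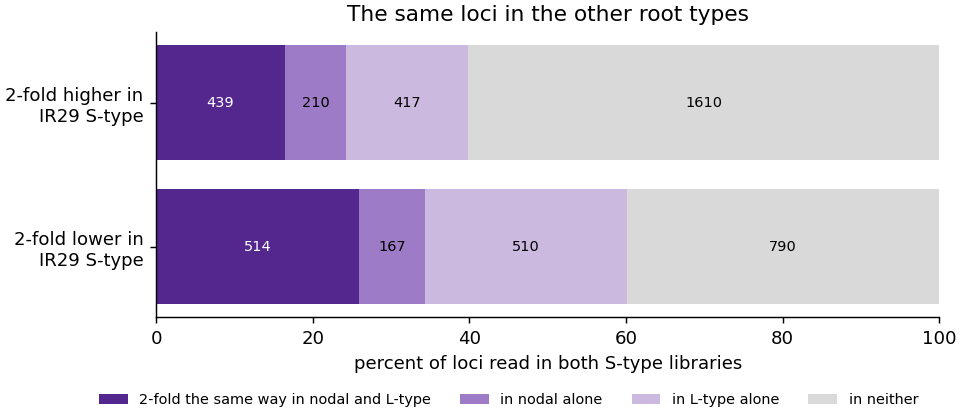
Loci read in both S-type libraries and at least 2-fold higher (upper bar, 2676 loci) or lower (lower bar, 1981 loci) in IR29 S-type roots, divided by whether they passed 2-fold in the same direction in the nodal and L-type libraries. Numbers in the bars are loci. The part that passed in neither is 60.2% of the higher and 39.9% of the lower loci. Folds downward in nodal and L-type roots were also commoner than upward ones among loci within 2-fold in S-type roots.

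The lists of 2-fold loci overlapped in part between the root types, and their unequal lengths set the shares below. Among 17906 loci read in both cultivars in S-type and in nodal roots, 2471 were at least 2-fold higher in IR29 in S-type and 1020 in nodal roots. By the membership rule applied to each root type, loci read in both cultivars were at least 2-fold higher in IR29 in 6.54% and lower in 10.8% of cases in nodal roots, and in 15.3% and 21.9% of cases in L-type roots. The 580 in both lists were 23.5% of the S-type list and 56.9% of the nodal list. The lower lists held 1847 and 1677 loci, and the 586 in both were 31.7% of the S-type and 34.9% of the nodal list. With L-type roots, 793 higher loci were shared (32.2% of the S-type and 32.1% of the L-type list) and 858 lower loci (47.6% of the S-type and 22.8% of the L-type list). Over 17551 loci read in all 6 libraries, the S-type fold correlated with the nodal fold at r = 0.40 (rho = 0.27) and with the L-type fold at r = 0.30 (rho = 0.22), while the nodal and L-type folds correlated at r = 0.53 (rho = 0.44). The folds come from separate libraries, and loci are not independent replicates. By that rule the median size of the log2 fold was 0.50 in S-type, 0.36 in nodal and 0.74 in L-type roots. The nodal libraries of the cultivars correlated at r = 0.80, and the nodal values above do not rest on the L-type libraries.

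Some loci differed between the cultivars in S-type roots and stayed within 2-fold in nodal and L-type roots, where 1 library of each root type had to reach 10. There were 692 such loci among the higher (25.9%) and 600 among the lower ones (30.3%), while 9052 of the 13701 loci within 2-fold in S-type roots (66.1%) met the same condition in the other root types. The 692 had a median scaled count of 256 in IR29 against 81.0 in Mulai S-type roots, 91.1 against 81.4 in nodal and 120.0 against 109 in L-type roots. The 600 had a median of 28.6 in IR29 against 73.9 in Mulai S-type roots, 67.4 against 79.6 in nodal and 63.8 against 63.3 in L-type roots. These loci were chosen by their S-type values, and nothing is read from which S-type library lay apart. The loci within 2-fold in all 3 root types had medians of 174 in IR29 against 179.8 in Mulai S-type roots.

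Whether the S-type difference stands apart from that in the other root types was tested over all 6 libraries with limma, in a model of root type, cultivar and the extra cultivar difference in S-type roots. The model treats the nodal and L-type cultivar differences as repeats of each other and leaves 1 residual degree of freedom. No locus passed among 20316 tested (0%, Benjamini-Hochberg adjusted p under 0.05), and the smallest adjusted p was 0.359. Before adjustment 1495 loci had p under 0.05, of which 1223 had a higher and 272 a lower IR29 over Mulai fold in S-type than in the other root types. Among 20316 tests many p-values under 0.05 arise without any difference, and all loci share the same 6 libraries. Nothing is therefore read from these counts. On the recovered reads, edgeR called 3 loci, all with a higher S-type fold, and DESeq2 called 97, of which 92 had a higher and 5 a lower one. The median standard error of the difference in limma was 0.80 on the log2 scale. The test cannot be made without the IR29 L-type library, since no residual degree of freedom is left. No single locus is therefore called particular to the S-type comparison.

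Loci that favoured L-type over nodal roots were more often higher in IR29 S-type laterals. The lean was read from the nodal and L-type libraries alone, in a grouping added after the data were seen. Among 1242 loci at least 2-fold higher in L-type than in nodal roots in both cultivars and read in both S-type libraries, the median log2 fold of IR29 over Mulai in S-type roots was 0.69, and 487 (39.2%) were at least 2-fold higher and 107 (8.62%) at least 2-fold lower in IR29. Among 10040 loci within 2-fold between L-type and nodal roots, the median was -0.03, with 878 (8.75%) higher and 783 (7.80%) lower. The 1242 loci had a median scaled count of 319 in IR29 against 198 in Mulai S-type roots, 30.0 against 36.7 in nodal and 140.5 against 139.8 in L-type roots. Their medians were near equal between the cultivars in L-type roots, but the L-type values of both cultivars took part in choosing these loci. The S-type values did not, so that the L-type medians are no measure for the S-type gap.

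Loci that favoured nodal roots had a median on the other side of 0, by a smaller amount. Among 772 loci at least 2-fold higher in nodal than in L-type roots in both cultivars, the median S-type fold was -0.30, with 126 (16.3%) at least 2-fold higher and 184 (23.8%) at least 2-fold lower in IR29. Their median scaled count was 28.6 in IR29 against 32.0 in Mulai S-type roots and 163 against 158 in nodal roots. The S-type over nodal fold of the 1242 L-type loci had a median of 3.19 in IR29 and 2.09 in Mulai, and that of the 772 nodal loci a median of -2.13 in IR29 and -1.96 in Mulai; these folds share the S-type libraries with the values above.

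**Figure D5:**
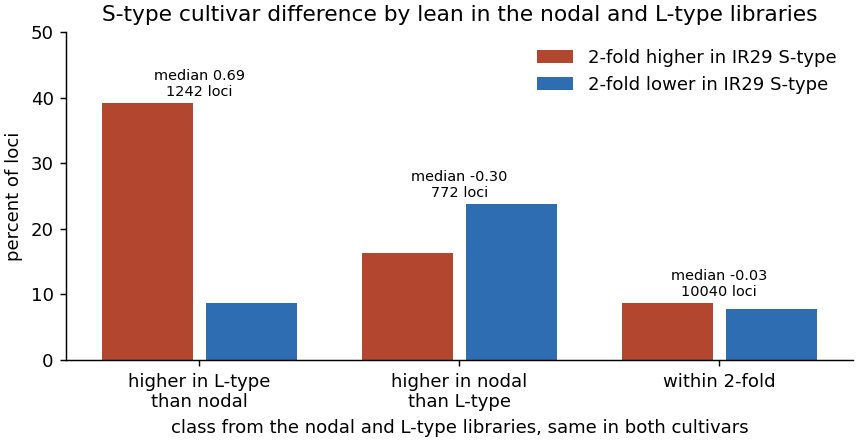
Share of loci at least 2-fold higher (red) or lower (blue) in IR29 than in Mulai S-type roots, for loci at least 2-fold higher in L-type than nodal roots in both cultivars, loci at least 2-fold higher in nodal than L-type roots in both cultivars, and loci within 2-fold in both; the median log2 fold and the number of loci stand above each pair. The share higher in IR29 is 39.2% in the first class and 8.75% in the last.

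The order of these classes was the same under the scalings and choices tried. Scaled to total reads, the medians were 0.56 for L-type loci, -0.44 for nodal loci and -0.17 for even loci, and with TMM factors 0.63, -0.37 and -0.10. With at least 10 reads in both S-type libraries they were 0.66, -0.25 and -0.01. The lean was also read from the Mulai libraries alone, and thus without the IR29 L-type library. Then 2301 L-type loci had a median of 0.56, with 822 (35.7%) at least 2-fold higher and 287 (12.5%) at least 2-fold lower in IR29. The 1182 nodal loci had a median of -0.15, with 252 (21.3%) at least 2-fold higher and 271 (22.9%) at least 2-fold lower, close to balanced. The 14875 even loci had a median of -0.02, with 10.8% higher and 9.57% lower. Nodal loci thus passed 2-fold more often than even loci in both directions. With the lean read from the IR29 libraries alone, 3483 L-type loci had a median of 0.35 and 3677 nodal loci a median of -0.16. The 11198 even loci had a median of -0.01. The classes were not tested, since each S-type fold rests on 1 library per cultivar.

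The size of the cultivar difference varied with expression in S-type roots, as it did in the other root types. Loci were grouped by their mean in the 4 nodal and L-type libraries, which the S-type fold does not use; this grouping too was added after the data were seen. The median size of the log2 fold was 0.76 in 4205 loci with a mean of 10 to 50, 0.52 in 3218 loci from 50 to 100, 0.39 in 5567 loci from 100 to 300, 0.35 in 3345 loci from 300 to 1000 and 0.42 in 789 loci of 1000 or more. In 1234 loci with a mean under 10 it was 1.34, with 505 loci (40.9%) at least 2-fold higher and 259 (21.0%) at least 2-fold lower in IR29. These last loci entered through an S-type library in which they were comparatively high. In every root type the minimum of 10 was met with fewer reads in IR29 than in Mulai. Grouped in the same way by the libraries of the other root types, loci with a mean under 10 were 17.2% higher and 26.7% lower in nodal roots. In L-type roots 46.3% were higher and 24.8% lower. Whether the minimum bears on these shares was not tested.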

How the data were processed

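RNA of 6 rice root libraries was sequenced, 1 per cultivar and root type. The submitters' processing notes name Trimmomatic 0.32 and Bowtie, then TopHat2 2.0.11, then Cufflinks 2.2.1 with Cuffdiff 2.2.1, and the build IRGSP-1.0. For options and annotation, the sources used here give nothing. Loci that overlap or resemble each other may therefore share reads in a way that is unknown. The authors deposited a signal per locus: fragment counts times 1 scaling factor per library, as the values show. All values above 0 (100%) were whole multiples of 1 step within 0.1 of a read (largest gap 0.0768), and division by the step gave whole reads, 3891153 to 7904454 per library. The 24 further columns (model variances and status flags) were left aside.

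Folds are differences of log2(value + 1), IR29 minus Mulai. Loci with no read in an S-type library were kept apart. Intervals of ratios and shares are exact 95% binomial intervals; reads are not independent molecules, so they cover counting error only. The test of S-type against the other root types used limma 3.58.1 in R 4.3.3 (trend; loci whose value reached 10 in 2 or more libraries); edgeR 4.0.16 and DESeq2 1.42.0 were alternatives on recovered reads. Its error comes from the gap between the nodal and L-type cultivar differences in these libraries alone, moderated over all loci. That gap can be biological or technical, and no spread between replicates enters the p-values. Alternatives were pseudocounts, minimums, scalings and thinned reads.

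The loci, classes and tests were chosen with earlier results of these data known. Per direction, the loci named were the one with the highest value among those with no read in the other cultivar, and the one with the largest fold among those with at least 10 reads in both. At most 2 identifiers per direction are given, since none is paired with a gene name. For the same reason no gene or marker list, gene length or sequence was used.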

Additional observations from a re-analysis of the deposited data

Results flagged for a closer look

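Loci whose cultivar difference in S-type roots ran against that in both other root types are given here; the difference was not tested. In 203 loci IR29 was at least 2-fold higher than Mulai in S-type roots and at least 2-fold lower in both nodal and L-type roots, and in 11 loci the reverse held. The 203 loci had a median scaled count of 101 in IR29 against 30.3 in Mulai S-type roots, 9.22 against 33.7 in nodal roots and 8.20 against 53.0 in L-type roots. The 11 loci had a median of 4.51 in IR29 against 19.6 in Mulai S-type roots, 6.92 against 1.20 in nodal roots and 15.2 against 4.28 in L-type roots, levels of few reads. The 203 were 7.59% of the loci higher in S-type roots, against 4.50% lower in both other root types among loci within 2-fold in S-type roots; the 11 were 0.555% of the lower loci, against 1.26%.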

How the results depend on the processing

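Of 119 counts and medians under the alternatives, 102 stayed within 1.5 times (counts) or 0.1 log2 units (medians). The other 17 are these. The minimum sets how many loci are counted. With a minimum of 50 there were 1825 loci at least 2-fold higher and 1417 lower in IR29, 704 and 636 past 4-fold, and 138 without a read in Mulai and 282 without a read in IR29. Of those read in both, 1687 were then higher and 1135 lower, and 272 and 312 passed 2-fold in the same direction in all root types. With 1 read as the minimum there were 4945 higher and 4249 lower loci, with 1788 unread in Mulai and 2981 in IR29. With absence taken as at most 3 reads there were 756 such loci in Mulai and 1133 in IR29. Scaled to total reads, the median fold was -0.13. For the test of S-type against the other root types, edgeR gave 3 loci and DESeq2 97. The other 6 settings were limma itself with another pseudocount, minimum or scaling, and each gave 0. Why the methods differed was not tested. The 4 named loci kept their direction under all 24 values. Reads thinned to 3891153 per library gave 2637 higher and 2068 lower loci read in both. No paired analysis was possible because each cultivar and root type has 1 library. Neither S-type library can be left out of the comparison.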

Other observations

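Loci that differed had neighbouring identifiers more often than their share among the loci compared. Of 183 loci without a read in Mulai S-type roots whose next-numbered locus was also compared, 36 (19.7%) were followed by another of the kind, where such loci were 2.15% of all compared. For loci without a read in IR29 S-type roots this was 58 of 341 (17.0%), against 3.67%. For loci read in both it was 315 of 1472 (21.4%, against 13.7%) among those at least 2-fold higher in IR29, and 145 of 1103 (13.1%, against 10.2%) among those at least 2-fold lower. The longest run of consecutive identifiers was 4 loci in each of the first 3 groups and 3 in the last. The table holds no positions, so that whether neighbouring numbers are neighbours on a chromosome was not tested.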
